A study of Arabidopsis thaliana with 12 samples.

Results

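The genes described here are 54 Arabidopsis thaliana loci whose array signal was lower in plants given ascorbate after staurosporine than in plants given staurosporine after water, in each of 3 array pairs. They were selected on the measured change itself. Intensities were put on a log2 scale and quantile-normalized, which makes the spread of values equal on all arrays. A locus was kept when ascorbate minus staurosporine was at most -0.4 log2 units in arrays 1 and 2, in arrays 3 and 4, and in arrays 5 and 6. It also needed a probe listed with 1 gene, no reading of 0 on any of the 12 arrays, and a place outside the 60 brightest named loci. Of 691 loci with such a probe, 451 met the conditions on zeros and brightness and are called eligible below. Of these, 61 met the limit, and 7 of the 61 were left out by name. All changes given for the 54 loci therefore describe the selection and carry no test.

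The ascorbate group held 6 arrays of wild-type plants, ecotype Columbia, that received 2 µM staurosporine over 4 h and then 25 mM ascorbate over 4 h. The staurosporine group held 6 arrays of the same genotype that received water over 4 h and then staurosporine over 4 h. The dose in this second group is given in the labels as 25 mM, which equals the ascorbate dose of the other group and differs from its 2 µM staurosporine. A pH of 5.5 is stated for both groups, and no tissue, age or number of plants is stated. All plants thus received the inhibitor, and the groups differed in its timing and, per the labels, its dose as well as in ascorbate, which cannot be told apart. None of 9 leaf mesophyll, 4 root and 4 guard cell markers had a single-gene probe, so the tissue could not be checked. Each array held 3439 probes, or 3438 features once the 2 probes of 1 locus were averaged. Deposited intensities are in relative units from 0 to 100, and array medians ran from 0.351 to 0.486 in the ascorbate group and from 0.169 to 0.392 in the staurosporine group. Exact zeros made up 10.3% to 15.2% of probes on ascorbate arrays and 12.3% to 17.3% on staurosporine arrays.

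Staurosporine blocks a broad range of protein kinases by occupying their ATP site, and plants use kinase cascades to pass stress and hormone signals to the nucleus. Ascorbate is an abundant antioxidant of plant cells that removes hydrogen peroxide through ascorbate peroxidase and takes part in the redox balance of the chloroplast. Most of the genes are known in the annotation by locus number alone, so function can be given for few of them. A symbol was listed for 5 of the 54 loci, which are DI21, chr31, CUTA, HEMA3 and FBL17, against 92 of the 691 loci with a single-gene probe. Most of the 7 loci that met the limit and were left out by name are known by a symbol. The leave-out thus lowers the share of symbols among the 54, and nothing is read from it. These 5 are described because they have a name, and were picked after their values were seen. The annotation lists 53 of the 54 as protein coding, and AT1G03660 was found in the platform's gene list only.

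DI21 (AT4G15910), a gene named in the annotation for its induction by drought, read 0.582 at its lowest, 0.709 at the median and 1.01 at its highest on the 6 ascorbate arrays. On the 6 staurosporine arrays its lowest, median and highest readings were 1.12, 1.27 and 1.61. The ascorbate readings thus lay all below the staurosporine readings before any normalization. Its normalized log2 changes were -1.0, -0.59 and -1.61 in arrays 1 and 2, 3 and 4, and 5 and 6. On the normalized scale the groups overlapped, because ascorbate array 3 at 0.08 stood above staurosporine array 2 at -0.03.

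The symbol chr31 (AT1G05490) belongs to a chromatin remodeling gene, a class of proteins that use ATP to move or open nucleosomes. It read 0.738, 1.09 and 1.3 (lowest, median and highest) on ascorbate arrays, against 1.74, 1.96 and 2.08 on staurosporine arrays. No ascorbate reading reached the lowest staurosporine reading, and ascorbate arrays 5 and 6, at 0.738 and 0.765, were the lowest of all. The median with ascorbate was 0.556 of that with staurosporine, and the normalized log2 changes in the 3 pairs were -0.70, -0.89 and -1.42. On staurosporine arrays chr31 was brighter than 93.4% of features at the median, and on ascorbate arrays brighter than 86.7%.

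CUTA (AT2G33740) encodes a plant relative of the bacterial CutA protein, which is linked to tolerance of divalent metal ions such as copper. Its lowest, median and highest readings were 0.452, 0.514 and 0.674 with ascorbate, against 0.558, 0.665 and 0.941 with staurosporine. The groups overlapped, since ascorbate array 3 at 0.674 exceeded staurosporine arrays 3, 4 and 6. Its normalized log2 changes were -0.95, -0.70 and -1.12.

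HEMA3 (AT2G31250) is a member of the small gene family for glutamyl-tRNA reductase, the enzyme that commits glutamate to the synthesis of chlorophyll and heme. It read 0.496, 0.949 and 1.21 at the lowest, median and highest with ascorbate, against 0.872, 1.13 and 1.68 with staurosporine. Readings were highest in arrays 1 and 2 of both groups, at 1.21 and 1.18 with ascorbate against 1.62 and 1.68 with staurosporine. In arrays 5 and 6 the readings were 0.634 and 0.496 with ascorbate, against 0.872 and 0.947 with staurosporine. The normalized log2 changes of -0.53, -0.41 and -1.24 put HEMA3 among the members nearest the limit.

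FBL17 (AT3G54650) encodes an F-box protein that marks inhibitors of cyclin-dependent kinases for destruction and so permits entry into DNA replication. Its normalized log2 changes were -0.52, -0.41 and -0.51, and their mean of -0.48 was the smallest among the 54 loci. Its lowest, median and highest deposited readings were 0.309, 0.449 and 0.585 with ascorbate, against 0.342, 0.395 and 0.468 with staurosporine. The groups overlapped and the ascorbate median was the higher one, so its deposited signal did not show the lower level that its normalized value shows. On the deposited log2 scale its change was -0.34 in arrays 1 and 2, and 0.38 and 0.27 in the other pairs.

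**Figure D1:**
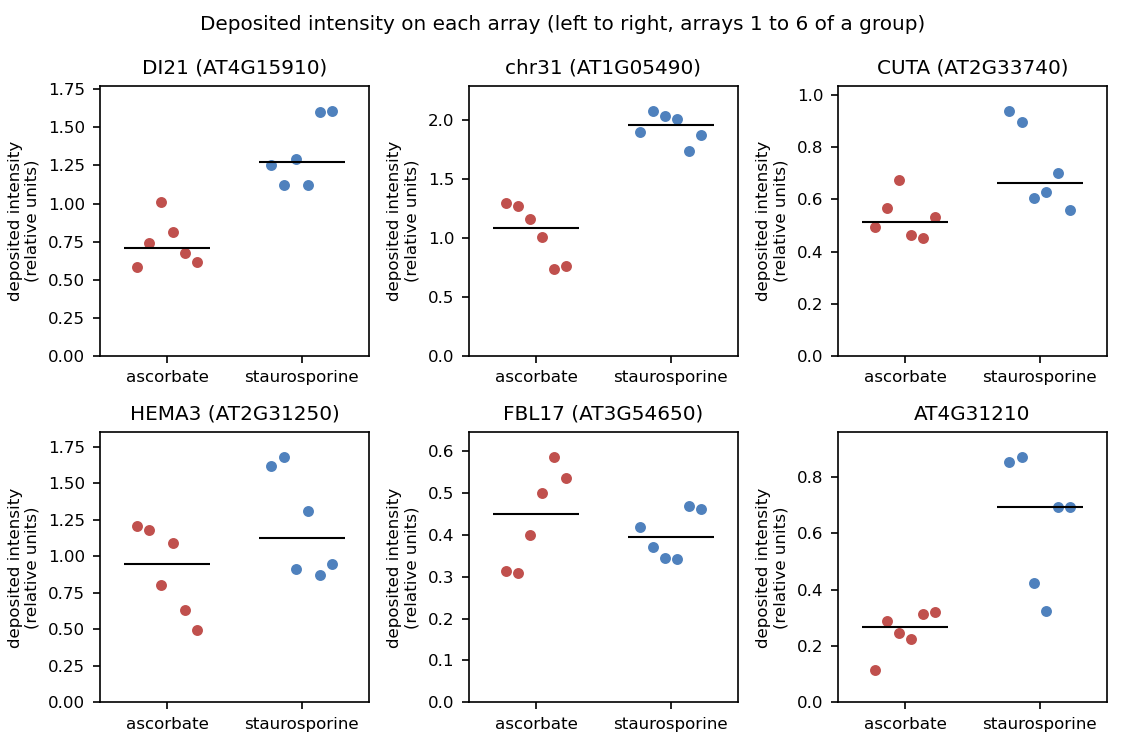
Deposited intensity in relative units of the 5 loci with a symbol and of AT4G31210, with 1 point per array (ascorbate left, staurosporine right, arrays 1 to 6 from left to right within a group) and a line at the group median. DI21, chr31 and AT4G31210 have all ascorbate points below all staurosporine points, while the groups overlap for CUTA, HEMA3 and FBL17.

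Over all 54 loci the median of the mean log2 change was -1.11, with single loci between -2.56 and -0.48, and 33 loci had a mean change of -1 or lower. The same median over all 3438 features was 0.00, and over the 451 eligible loci it was 0.06. The mean changes of the 5 named loci were -1.07 for DI21, -1.0 for chr31, -0.92 for CUTA, -0.73 for HEMA3 and -0.48 for FBL17. The changes of -2.07 and -2.56 at the far end belonged to AT4G31210 and AT1G24040.

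At the limit itself, the 3 members with the weakest single pair were AT4G07670, with -0.40 in arrays 1 and 2, and FBL17 and HEMA3, each with -0.41 in arrays 3 and 4. Just outside lay AT5G19750 and the glycosyl hydrolase gene GH9B12 (AT2G44570), each with -0.39 in arrays 3 and 4, and AT5G59400 with -0.34 in arrays 5 and 6. The mean changes of the outside loci, at -0.63, -0.87 and -0.70, were as low as those of the inside loci, at -0.74, -0.48 and -0.73. Another 16 loci met the limit but had a 0 on some array, and 11 met it but were among the 60 brightest, names of the leave-out list included. With the same conditions and leave-out names, 65 eligible loci were at least 0.4 log2 units higher with ascorbate in every pair.

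AT4G31210 had the lowest mean change among members that were at least 1 log2 unit lower in every pair after normalization. It was entered by locus number in a list of DNA topoisomerases and organelle DNA replication genes, enzymes that untangle and copy DNA, since the annotation gives it no name. Its lowest, median and highest readings were 0.114, 0.268 and 0.32 with ascorbate, against 0.325, 0.693 and 0.87 with staurosporine. Every ascorbate reading was below every staurosporine reading, by a narrow margin between ascorbate array 6 at 0.32 and staurosporine array 4 at 0.325. The normalized log2 changes were -2.62, -1.41 and -2.18. Without normalization they were -2.25, -0.65 and -1.13.

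Of the 54 loci, 11 were at least 1 log2 unit lower in every pair after normalization. Their deposited changes did not all reach this. AT2G31920 had -1.11, -0.96 and -1.76 there, and AT3G25410 had -1.06, 0.03 and -0.52. These were AT4G31210, AT4G22650, AT3G25410, AT4G01810, AT1G65090, AT3G18870, AT3G09250, AT3G57120, AT2G31920, AT2G21720 and AT3G50350, none of which has a symbol in the annotation. AT4G22650 read 0.247, 0.463 and 0.595 (lowest, median and highest) with ascorbate, against 0.724, 1.09 and 1.24 with staurosporine. AT2G31920 read 0.593, 0.696 and 0.863 with ascorbate, against 1.33, 1.8 and 2.1 with staurosporine. AT2G21720 read 0.503, 0.633 and 0.832 with ascorbate, against 1.25, 1.45 and 1.69 with staurosporine. For these 3 loci the highest ascorbate array stayed below the lowest staurosporine array. AT4G01810, with normalized log2 changes of -1.72, -1.51 and -1.62, was the most even of the 11 across pairs, but its deposited readings overlapped, at 0.0681 to 0.331 with ascorbate against 0.235 to 0.403 with staurosporine. Its change in arrays 1 and 2 rested on ascorbate array 1, where 0.0681 became -5.46 after normalization, while 0.273 on ascorbate array 2 became -2.32. Without ascorbate array 1 the change of AT4G01810 in that pair was -0.15, which misses the limit, and its mean change was -1.13 in place of -1.61. The mean change of AT3G18870 leaned on 1 array. AT3G18870 read 0.0248 on ascorbate array 4 and 0.165 to 0.435 on the other ascorbate arrays, against 0.245 to 0.346 with staurosporine. Without ascorbate array 4 its mean change was -1.04 in place of -1.53, but it still met the limit. AT3G25410 and AT1G65090 had their lowest normalized values on ascorbate array 2, at -5.52 and -3.86. Without that array their mean changes were -1.32 and -1.37, in place of -1.72 and -1.61. With each of the 12 arrays left out in turn, 28 of the 54 loci met the limit every time and 26 missed it at least once, a count added after the data were seen.

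The size of the change differed between the array pairs. The lowest of the 3 changes fell in arrays 5 and 6 for 35 of the 54 loci, in arrays 1 and 2 for 12 and in arrays 3 and 4 for 7. Over all 451 eligible loci those counts were 166, 192 and 93. The highest of the 3 changes also fell most often in arrays 5 and 6 among the eligible loci, for 182 of them. It fell in arrays 1 and 2 for 137 and in arrays 3 and 4 for 132. The rule used these same changes, so nothing is read from the counts of the 54. The median change over the 54 loci was -0.85 in arrays 1 and 2, -0.84 in arrays 3 and 4 and -1.52 in arrays 5 and 6, while the medians over the eligible loci were -0.03, 0.14 and 0.07. The labels do not say what distinguishes the array numbers, and the part of a batch in these differences was not tested.

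**Figure D2:**
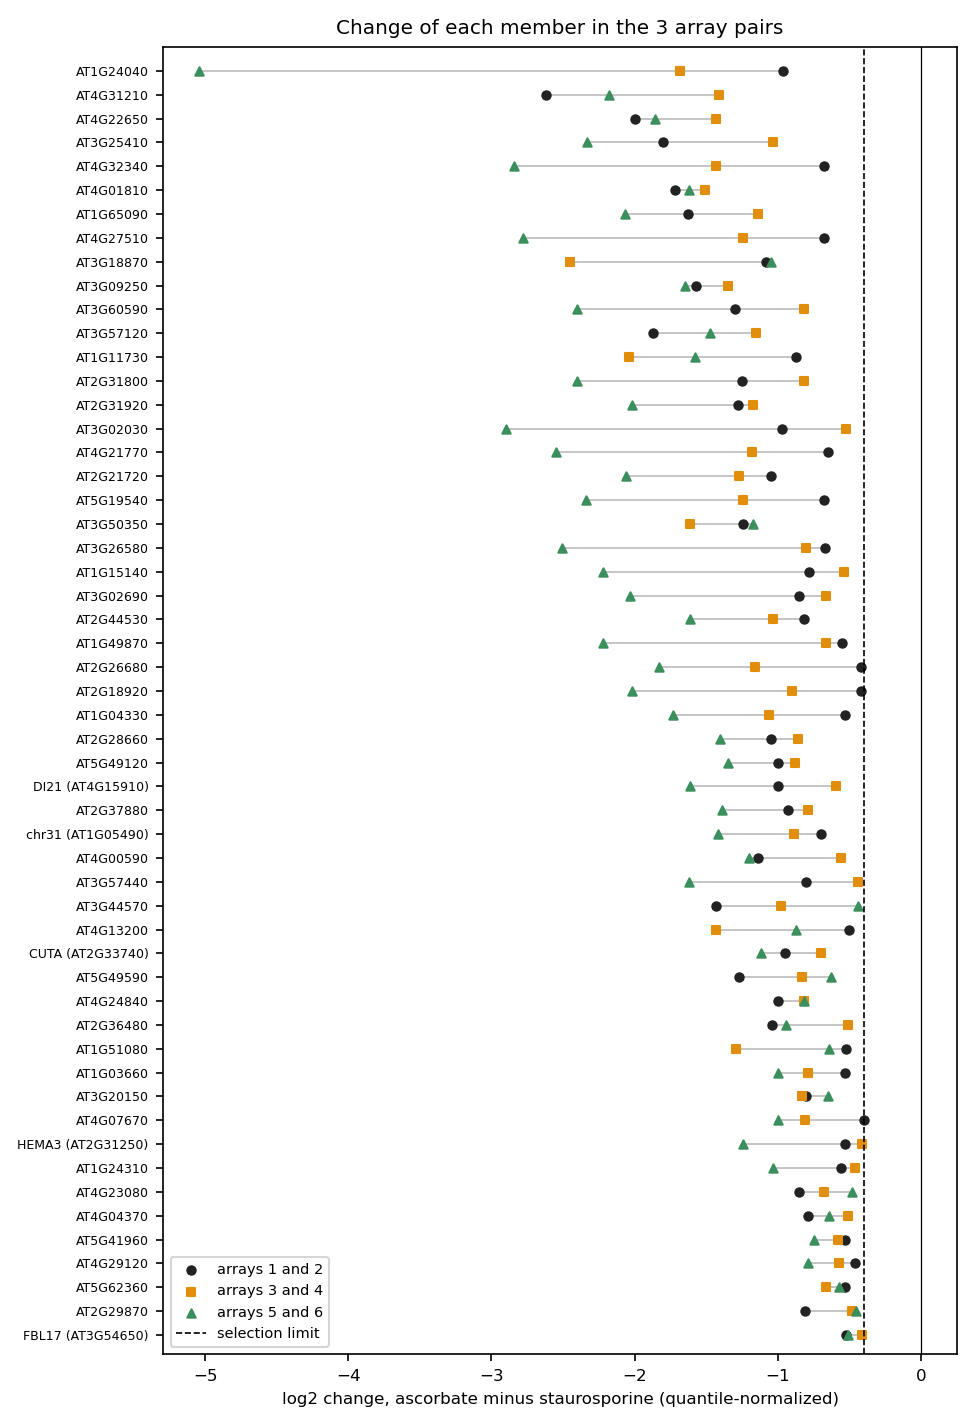
Normalized log2 change, ascorbate minus staurosporine, of each of the 54 loci (rows, sorted by mean change) in arrays 1 and 2, 3 and 4, and 5 and 6 (symbols), with a dashed line at the limit of -0.4 that chose the loci. In 35 rows the lowest symbol is that of arrays 5 and 6, and AT1G24040 reaches -5.04 there.

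For 22 loci the largest and smallest of the 3 changes lay more than 1 log2 unit apart, and in 19 of these arrays 5 and 6 held the lowest value. That is 40.7% of the 54 loci, against 52.8% of the eligible loci (238 of 451), and the median distance was 0.81 for the 54 and 1.03 for the eligible loci. The limit of -0.4 in every pair leaves out loci with changes of opposite sign, so nothing is read from this comparison. AT1G24040 was the most uneven, with changes of -0.96, -1.68 and -5.04. Its deposited readings did not overlap, at 0.113, 0.244 and 0.329 (lowest, median and highest) with ascorbate against 0.374, 0.505 and 0.752 with staurosporine. Its value of -5.04 rests most on ascorbate array 6, where a reading of 0.113 became -6.70 after normalization. On ascorbate array 5 a reading of 0.201 became -3.96. A reading of 0.139 on ascorbate array 4 became -2.90, but the median intensity of that array was 0.351, against 0.483 on array 6. Normalization, which also evens out the levels of the arrays, thus spread these dim readings much further apart than the deposited values. On the deposited scale the change of AT1G24040 in arrays 5 and 6 was -2.30.

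AT4G21770 showed an uneven change at a brighter level. It read 1.55 and 1.32 on ascorbate arrays 1 and 2. The next ascorbate pair read 0.932 and 0.733, and the last read 0.598 and 0.347. On the 6 staurosporine arrays its lowest, median and highest readings were 1.7, 1.92 and 2.31. Every ascorbate reading was below the staurosporine readings, but the ascorbate pairs stood apart from each other, and the normalized log2 changes were -0.65, -1.18 and -2.55. AT3G26580 had changes of -0.67, -0.80 and -2.51, and both groups differed between its pairs. With ascorbate the first pair read 0.874 and 0.895, the next 1.07 and 1.1, and the last 0.53 and 0.563. With staurosporine the first pair read 1.27 and 1.36, the next 1.82 and 1.84, and the last 2.52 and 2.7. Arrays 5 and 6 were thus its lowest with ascorbate and its highest with staurosporine. Its lowest, median and highest readings were 0.53, 0.884 and 1.1 with ascorbate, against 1.27, 1.83 and 2.7 with staurosporine. AT2G31800, AT4G27510, AT5G19540 and AT4G32340 were also lowest in arrays 5 and 6, at -2.40, -2.78, -2.34 and -2.84. AT1G15140, AT1G49870, AT3G02690, AT2G18920, AT1G04330, AT2G26680 and AT3G57440 belonged to this set as well, with -2.22 to -1.62 in arrays 5 and 6. DI21, at -1.61 in that pair, was in the set too.

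The loci that were lowest in arrays 3 and 4 were AT1G11730, AT1G51080, AT3G18870, AT3G20150, AT3G50350, AT4G13200 and AT5G62360. Among them AT1G11730 had changes of -0.87, -2.04 and -1.58, and AT4G13200 of -0.50, -1.43 and -0.87. FBL17, AT3G57120 and AT3G44570 were among the 12 loci lowest in arrays 1 and 2. AT3G44570, with -1.43, -0.98 and -0.44, ran opposite to the common form, its smallest change being in arrays 5 and 6. The 3 changes lay within 0.25 log2 units of each other for 6 loci. These even loci were FBL17, AT5G62360, AT3G20150, AT4G24840, AT4G01810 and AT5G41960, and apart from AT4G01810 their mean changes were between -0.88 and -0.48.

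In the order of brightness on each array, the 54 loci held a middle place with ascorbate and a high place with staurosporine. At the median of the 54 loci, 49.2%, 48.4%, 50.6%, 53.3%, 43.3% and 43.8% of features were dimmer on ascorbate arrays 1 to 6. The values for staurosporine arrays 1 to 6 were 73.1%, 74%, 76.9%, 75.2%, 77.2% and 77.9%. Arrays 5 and 6 were at the low end with ascorbate and at the high end with staurosporine. The median of the 451 eligible loci, 54 included, stayed between 53.6% and 59.9% on all 12 arrays. Rank does not depend on the scale of an array, but it follows the values that chose the loci.

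**Figure D3:**
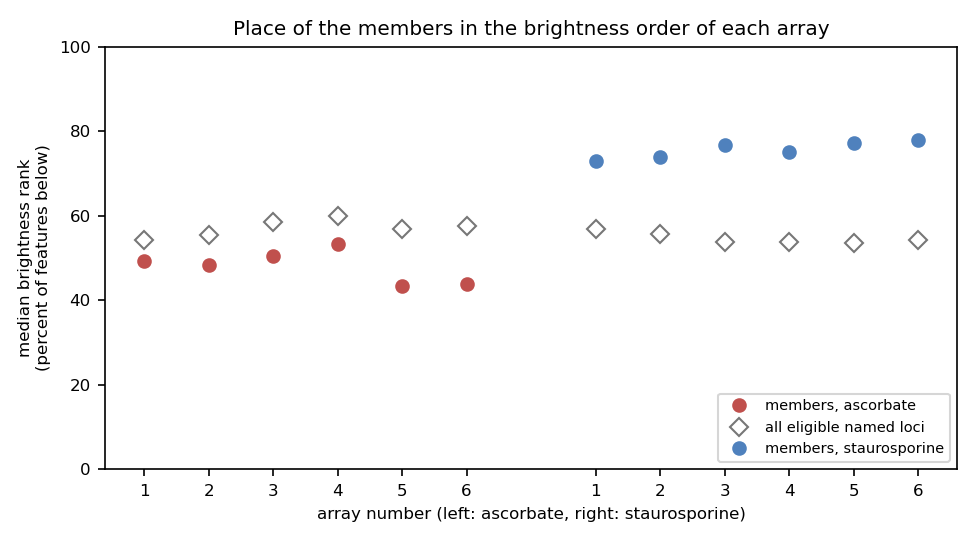
Median brightness rank, as the percent of features that are dimmer, of the 54 loci (filled circles) and of the 451 eligible loci (open diamonds) on ascorbate arrays 1 to 6 (left) and staurosporine arrays 1 to 6 (right). The 54 loci lie between 43.3% and 53.3% with ascorbate and between 73.1% and 77.9% with staurosporine.

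Without normalization the picture was weaker. The median log2 change over all features was 0.72 on the deposited scale, so a locus whose reading did not change lies below the median feature there. On that scale 49 of the 54 loci had a mean change below 0, with a median of -0.51, and 32 were lower in all 3 pairs. Of all 3438 features, 894 had a mean change below 0 and 383 were lower in all 3 pairs. In arrays 1 and 2 all 54 were lower, in arrays 3 and 4 37 were, and in arrays 5 and 6 38 were. Over all features those counts were 1419, 798 and 853. The selection raises the counts among the 54, so nothing is read from them. The median change of all features differed between these pairs too, at 0.18, 0.91 and 1.02, and the part of array scale in the changes of single loci was not tested. The 5 loci with a mean change above 0 were AT5G62360, AT1G24310, AT1G51080, FBL17 and AT4G29120, at 0.17, 0.15, 0.12, 0.10 and 0.07. Each of the 5 was below 0 in arrays 1 and 2, at -0.34, -0.40, -0.31, -0.34 and -0.31. Applied to deposited values, the limit of -0.4 in each pair was met by 16 eligible loci, while 119 were at least 0.4 higher in each pair.

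**Figure D4:**
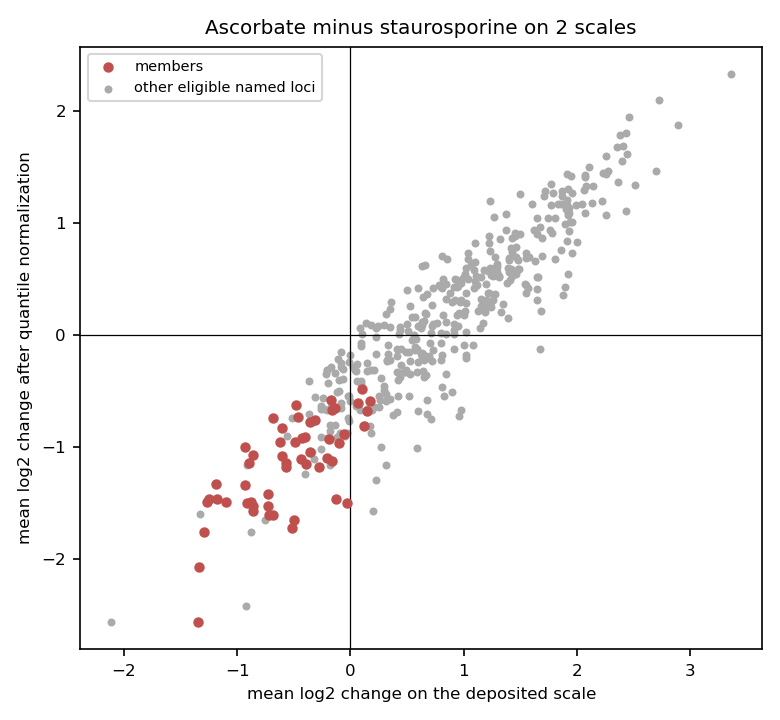
Mean log2 change, ascorbate minus staurosporine, on the deposited scale (horizontal) and after quantile normalization (vertical) for the 54 loci and the other 397 eligible loci, 1 point per locus. Of the 54 loci, 49 lie left of 0 on the deposited scale, and 342 of the 397 other loci lie to the right of 0.

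The deposited readings of the groups did not overlap for 14 of the 54 loci, with all ascorbate arrays below all staurosporine arrays. This held for 4.1% of all features, a share that the selection raises among the 54, so nothing is read from it. Besides DI21, chr31 and AT4G31210, the 14 were AT1G24040, AT2G21720, AT2G31800, AT2G31920, AT3G26580, AT3G57120, AT4G07670, AT4G21770, AT4G22650, AT4G27510 and AT5G19540. Their ratios of medians, ascorbate over staurosporine, ran from 0.386 for AT2G31920 to 0.605 for AT3G57120. After normalization 28 loci did not overlap, against 8.46% of all features, and 12 of the 28 were among the 14. DI21 and AT3G26580 were separate in the deposited values and not after normalization.

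The loci were also split by brightness, as a description with no test. Of the 27 loci with a mean intensity of 0.5 or more over all 12 arrays, 10 were separate in the deposited values and 22 were lower in all 3 pairs there. Of the 27 dimmer loci, 4 were separate and 10 were lower in all 3 pairs. Among all features, 9.9% of those at 0.5 or more and 0.735% of the dimmer ones were separate in this direction, and nothing is read from the counts of the 54. The median normalized change was alike in the brighter and dimmer loci, at -1.07 and -1.15, while the median deposited change was -0.62 and -0.28. The 5 loci with a higher deposited mean were all among the dimmer ones. AT3G60590 and AT3G02030 were dim throughout. AT3G60590 read 0.0596, 0.149 and 0.205 (lowest, median and highest) with ascorbate, against 0.0396, 0.135 and 0.275 with staurosporine. AT3G02030 read 0.13, 0.195 and 0.274 with ascorbate, against 0.12, 0.217 and 0.371 with staurosporine. Their readings overlapped widely, although their mean normalized changes were -1.50 and -1.46. AT3G02030 had its lowest normalized value, -5.84, on ascorbate array 6, and without that array its mean change was -0.96. It is the only one of the 54 loci whose mean change moved by over 1.5 times when any 1 array was left out.

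The other members not yet named fell between these forms. AT2G44530, AT5G49120, AT2G28660 and AT2G37880 had mean changes of -1.15, -1.08, -1.10 and -1.04. AT4G00590, AT5G49590, AT2G36480, AT1G03660, AT4G23080, AT4G04370 and AT2G29870 had mean changes from -0.96 to -0.58. The normalized groups did not overlap for AT2G44530, AT5G49120, AT2G37880 and AT5G49590, and overlapped for AT2G28660 and the other 6.

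Readings of consecutive arrays of a group were close. Their Spearman correlation over features was 0.889 to 0.983, and the median difference of a member between the arrays of a pair was 0.19 log2 units, against 0.23 for the eligible loci. The 6 arrays of a group may therefore not be 6 independent samples, and no label says that they came from separate plants, so p-values measure only the spread between arrays. In a limma fit over all features and 12 arrays, 48 of the 54 loci were called lower (adjusted p under 0.05), where 14.1% of all features were. Over averages of the array pairs, with 3 values per group, 4 of the 54 were called lower, where 0.64% of all features were. With the pair as a block in that limma fit, 0 of the 54 and 0 of all features were called lower, while 41 of the 54 and 355 of all features were lower at an unadjusted p under 0.05. These counts stand beside a selection made on the same contrast, and nothing is read from them for the 54 loci. The 4 called over pair averages were AT3G57120, AT4G22650, AT4G31210 and AT5G49120. HEMA3, FBL17, AT1G51080, AT3G02030, AT3G18870 and AT4G23080 were not called over the 12 arrays.

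The loci lay on all 5 chromosomes, in unlike shares of the eligible loci. By locus number, 10 lay on chromosome 1, 12 on chromosome 2, 13 on chromosome 3, 14 on chromosome 4 and 5 on chromosome 5. The eligible loci on these chromosomes numbered 110, 86, 86, 80 and 88, which leaves out 1 that has no locus number. Only AT2G31800 and AT2G31920 were within 20 protein-coding genes of each other in the annotation, at 13 genes apart.

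Lists of related functions had few measured genes, and they were chosen with earlier results of these data known. The limma values given for them come from the fit without a block, where p-values measure only the spread between arrays. The list of DNA topoisomerases and organelle DNA replication held 21 loci, of which AT4G31210 alone was measured. Of 24 loci for nucleotide kinases and purine synthesis, 2 were measured, and neither is among the 54. AT3G06200, a brighter locus of that list, fell to 1.16, 1.41 and 1.56 (lowest, median and highest) with ascorbate, against 4.49, 5.84 and 7.3 with staurosporine (limma log2 change -1.93 ± 0.16 SE, adjusted p = 3.12e-05). AT1G31220 of the same list had a log2 change of -0.16 (limma adjusted p = 0.752). Of 29 loci for fatty acid and lipid synthesis, FATB (AT1G08510), a plastid thioesterase, and AT1G24360 were measured. FATB was listed at 0 on 1 ascorbate array and read up to 0.287 with ascorbate, against 0.138 to 0.362 with staurosporine. FATB was called lower in the fit without a block (limma adjusted p = 0.0285). AT1G24360 had a log2 change of 0.09 (limma adjusted p = 0.625). By words in gene names, 5 chaperone or protease genes, 1 transcription factor gene and 1 methyltransferase gene were found, none of them among the 54 and none called. TPP2 and CCS had the largest changes of the 5, at -0.54 and 0.37 (limma adjusted p = 0.673 and 0.311). AT4G03090 had a change of -0.68 and CHLM, a methyltransferase of chlorophyll synthesis, of 0.52 (limma adjusted p = 0.239 and 0.064). Median changes were -1.05 for the nucleotide list, -2.60 for the lipid list and 0.18 for the chaperone and protease genes, beside 0.00 for all features. With 2 measured genes such a median is the midpoint of both. That of the lipid list lies between -5.29 ± 1.58 (SE) for FATB, which includes the ascorbate 0 set to the array's smallest positive value, and 0.09 for AT1G24360. That of the nucleotide list lies between -1.93 and -0.16. No gene name held the words set for protein kinases and phosphatases, translation factors, ribosomal proteins or transporters, since the annotation used here lists few full names.

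Loci outside the 54 with a positive reading on every array were compared with the mean profile of the 54, leave-out names excepted. The 7 loci that met the limit and were left out by name were thus not compared. Among the loci compared, the normalized values of AT4G29890, AT4G22830 and AT3G06200 were most like that profile, and all 3 were among the 60 brightest. Their correlations with that profile were 0.95, 0.94 and 0.92 (Pearson, 12 arrays, which share pairs and the group difference). The profile follows the contrast that chose the 54 loci, so nothing is read from these correlations. AT4G29890 had log2 changes of -1.11, -0.77 and -1.44 in the 3 pairs, and AT4G22830 of -0.82, -0.66 and -1.0. Both were lowest in arrays 5 and 6. AT3G06200 had changes of -2.33, -1.67 and -1.80 and was lowest in arrays 1 and 2.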

How the data were processed

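Total RNA was measured on 12 arrays, 6 per group, and groups and array numbers come from the sample titles. The deposited table holds an intensity per probe on a linear scale from 0 to 100. The sources used here do not state their reference, the scanner, or any background correction and scaling by the authors. Probe names came from the platform annotation and RefSeq TAIR10.1 (names and gene order only), and 690 of 692 single-gene probes matched by Entrez number. AT1G03660 and 1 other kept their platform names. Symbols in the leave-out list were matched by locus. On each array zeros took its smallest positive value, log2 was taken, and all probes were quantile-normalized before probes of a locus were averaged.

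limma 3.58.1 in R 4.3.3 (lmFit, eBayes, 2-sided, Benjamini-Hochberg over 3438 features) compared ascorbate minus staurosporine without a block. The fit was also run on simulated data whose arrays varied independently of each other. That simulation lacks the likeness of consecutive arrays, so it cannot show how the fit behaves with it. The deviations of ascorbate and staurosporine arrays with the same number from their group means had correlations over features of 0.184, 0.182, 0.315, 0.347, 0.106 and 0.157. All exceed 0.1, which meets the condition set for a pairing, although no label states one. The printed fit has no block, and the array number as a block is an alternative (47 of the 54 loci and 417 features called lower).

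The 54 loci, the lists and the tests were chosen with earlier results of these data known. Loci named with values follow a fixed rule (the 20 lowest mean changes, list members, the 3 loci on each side of the limit, the 2 largest changes per list outside the 54), and those added for other reasons were named after their values were seen. Function lists meant for product descriptions were searched in symbols and synonyms instead. Alternatives were other scales, a pseudocount, a filter on dim features, blocks, pair averages, other limits and each array left out. The number of arrays limits the precision.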

Additional observations from a re-analysis of the deposited data

Results flagged for a closer look

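In 52 groups of 6 deposited readings (26 named loci in both groups of arrays), 1 reading stood far from the other 5, where chance gives about 1 in 20 groups. That is no more than chance gives over 52 groups, so nothing is read from it. AT3G09250 read 0.612 on ascorbate array 2, and the next highest of its ascorbate readings was 0.366.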

How the results depend on the processing

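The number of loci that met the selection was 54, and 50 to 70 with median centring, cyclic loess, a pseudocount, removal of the dimmest 25% of features or loci with a 0 kept. It was 16 on the deposited scale, 30 at a limit of -0.6, 77 at -0.2, 63 with the brightest loci kept, 65 for the opposite direction and 119 for the opposite direction on the deposited scale. Of the 54, 48 were called lower by limma, against 21 on the deposited scale, 26 with consecutive arrays as a random block (estimated correlation 0.54), 4 over pair averages and 0 when that fit took the pair as a replicate block, where 41 had an unadjusted p under 0.05. With the array number as a replicate block 47 were called. Over all features 486 were called lower, against 417 with the array number as a replicate block, 208 on the deposited scale, 755 with median centring, 262 with the random block, 22 over pair averages and 0 with the pair as a block. The groups were separate for 28 loci after normalization and for 14 on the deposited scale, a comparison added after the data were seen. Leaving out any 1 array gave 48 to 56 loci, 38 to 48 called of the 54, 388 to 498 called features and 28 to 35 separate loci, and the normalized change of all 54 stayed negative. It stayed negative for all members measured with the other scales except the deposited one, where 49 of 54 were below 0. Of 441 values of 26 named loci under other settings, 1 changed sign, FBL17 at 0.10 on the deposited scale. Another 39 moved by more than the SD of the 3 pairs, and the cause was not tested. Most of the 441 values came from leaving out 1 array, and the deposited scale moved more of these loci than any other setting. A wide SD can hide a large move. AT1G24040 went from -2.56 to -1.35 on the deposited scale and was not counted as moved, its SD being 2.17. Promoter motifs and protein features were not run, since no sequences were used here. How dim readings limit the values is given with AT1G24040, and signal over background is not known.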
